A study of Mus musculus with 20 samples.

Results

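The Wnt genes described here are 43 listed mouse genes that encode Wnt ligands, their Frizzled receptors and co-receptors, secreted Wnt antagonists and the feedback inhibitor Axin2. They were chosen by name and mapped to the Ensembl identifiers of the expression table, in which they are 43 of 37620 genes. Of the 43, 18 are Wnt ligands, 10 are Frizzled receptors, 5 are co-receptors, 9 are secreted antagonists and 1 is Axin2. Reads were present for 42 of them, and Wnt8b was blank in all 20 libraries, where a count of 0 allows up to 3 reads per library at 95% confidence. A mean log2 RPKM of at least 0 (1 RPKM) in 1 or more of the 4 groups was needed for the test, and 25 members reached it.

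Wnt ligands are secreted lipid-modified glycoproteins that bind Frizzled receptors. With the co-receptors Lrp5 and Lrp6 they protect β-catenin from degradation, and β-catenin then acts with transcription factors of the TCF/LEF family. With Ror1, Ror2 or Ryk they can signal independently of β-catenin, to the cytoskeleton and cell polarity. Secreted frizzled-related proteins and Wif1 bind the ligands themselves, Dkk1 and Dkk2 bind Lrp5 and Lrp6, and Axin2 is a widely used target gene that feeds back on the pathway. In the embryo, Wnt signals from the dorsal neural tube act on neural crest cells, the source of the neurons and glia of the dorsal root ganglion (DRG).

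Gene expression was measured by RNA sequencing of whole DRG from C57Bl6 mouse embryos at E18.5, late in gestation, in lumbar ganglia (L4-5) and in ganglia at L6-S1, called sacral here. Each of 10 donor embryos, 5 male (M1, M3, M5, M7 and M8) and 5 female (F3, F7, F8, F9 and F10), gave 1 library from each level, which makes 4 groups of 5 by level and sex. The study asked which transcripts mark the level that innervates pelvic organs, and whether level or sex differences are present before birth. The labels name no transgene or treatment. The ganglia were homogenized whole, with no sorting of cells, so the libraries held RNA of neurons, glia and any tissue dissected with them.

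Recovered depth was 19403023 to 39257771 reads per library, and mitochondrial ribosomal RNA took 18.1% to 61.4% of it. Markers of sensory neurons were abundant in every library, with a summed level of 1430 to 3410 RPKM over 12 genes in lumbar and 616 to 2250 RPKM in sacral ganglia, and none of the 12 was at 0 in any library. Of 6 spinal cord genes, Mnx1 was at 0 in 19, Chat in 17, Olig2 in 11 and Olig1 in 4 of the 20 libraries, while Slc5a7 (0.778 to 4.93 RPKM) and Aqp4 (0.742 to 2.93 RPKM) were present in all of them. In bulk tissue, fewer cells of a type and less RNA per cell cannot be told apart.

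RPKM, reads scaled to exon length and library size, allows levels to be compared between genes. The secreted antagonists Sfrp1 and Dkk3 were the most abundant members, with mean levels over all libraries of 5.74 and 5.34 on the log2 RPKM scale. Sfrp1, a secreted frizzled-related protein, ranged from 34.3 to 58.2 RPKM in lumbar ganglia (median 51.4) and from 38.0 to 69.6 RPKM in sacral ganglia (median 60.2). Dkk3, a divergent member of the Dickkopf family, ranged from 26.5 to 47.8 RPKM (median 40.2) in lumbar and from 33.6 to 55.5 RPKM (median 46.0) in sacral ganglia. Together these genes made up most of the antagonist transcripts, with lumbar median shares of 44.6% for Sfrp1 and 35.3% for Dkk3 of the summed antagonist RPKM, and sacral median shares of 45.3% and 35.5%.

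Among receptors, the co-receptor Lrp6 (mean log2 RPKM 3.65) and the receptors Fzd1 (3.51), Fzd7 (3.31) and Fzd3 (3.25) were the highest, and their ranges over libraries overlapped. Lrp6 made up a median of 63.9% of the summed co-receptor RPKM in lumbar and 65.1% in sacral ganglia, ahead of the receptor-like kinase Ryk with 16.0% and 15.2%. The ligands were lower. Wnt2b, the most abundant ligand, had a mean log2 RPKM of 2.08 and a median share of 40.7% of summed ligand RPKM in lumbar and 28.8% in sacral ganglia. Wnt5a (0.82), Wnt4 (0.75), Wnt6 (0.56) and Wnt9a (0.52) followed with overlapping ranges, and the other 13 ligands lay below the filter.

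**Figure D1:**
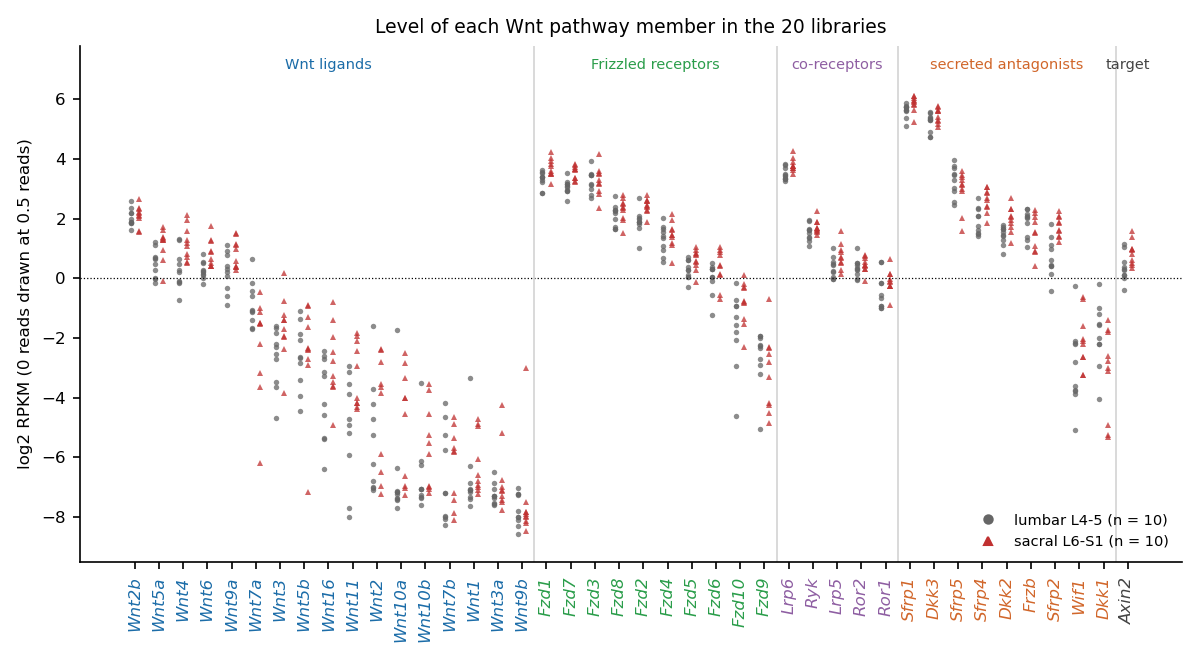
Level of the 42 members with reads in each of the 20 libraries, as log2 RPKM on the vertical axis, ordered by role and mean level, with grey circles for the 10 lumbar and red triangles for the 10 sacral libraries. Sfrp1 and Dkk3 lie highest, the dotted line at 0 is reached in most libraries by Wnt2b, Wnt5a, Wnt4, Wnt6 and Wnt9a and in 1 library each by Wnt7a and Wnt3, and the libraries with 0 reads of a gene are drawn at the value of 0.5 reads.

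Sacral ganglia had higher levels of a broad set of Wnt genes than lumbar ganglia of the same embryos. Of the 25 members tested, 12 rose past the threshold in sacral ganglia (limma, adjusted p at most 0.05) and 0 fell, beside 2.70% of all 14529 genes tested that were called higher, 4.03% called lower and 6.73% called in either direction. They were the ligands Wnt4, Wnt5a, Wnt6 and Wnt9a, the receptors Fzd1, Fzd2 and Fzd7, the co-receptor Lrp6, the antagonists Sfrp2, Sfrp4 and Dkk2, and Axin2. The estimated difference was positive for 23 of the 25 and negative for Sfrp5 and Frzb, with a median of 0.35 on the log2 scale, against -0.0475 and 42.0% positive over all genes tested. Called differences ran from 1.23-fold for Lrp6 to 2.06-fold for Sfrp2. An unadjusted p under 0.05 was found for 17 of the 25, beside 3501 of all 14529 genes tested.

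The number of calls depended on single donors, and each fit without 1 donor removed both of its libraries. It was 5 without M1, 7 without M3, 6 without M5, 9 without M7, 7 without M8, 4 without F3, 5 without F7, 12 without F8, 6 without F9 and 4 without F10. Calls over all genes, 978 with every donor, moved in these fits too, to 600, 691, 490, 737, 734, 557, 520, 1608, 706 and 406 in the same order. Fzd2, Fzd7, Sfrp2 and Sfrp4 were called in all 10 of these fits. All 12 estimates stayed positive in each of them, but these fits share most donors with the full fit that called the 12. With the replicate block as fixed donor effects, 5 of the 12 were called (Wnt4, Fzd2, Fzd7, Sfrp2 and Sfrp4), and Wnt5a, Wnt6, Wnt9a, Fzd1, Lrp6, Dkk2 and Axin2 lost the call, with 792 calls over all genes.

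**Figure D2:**
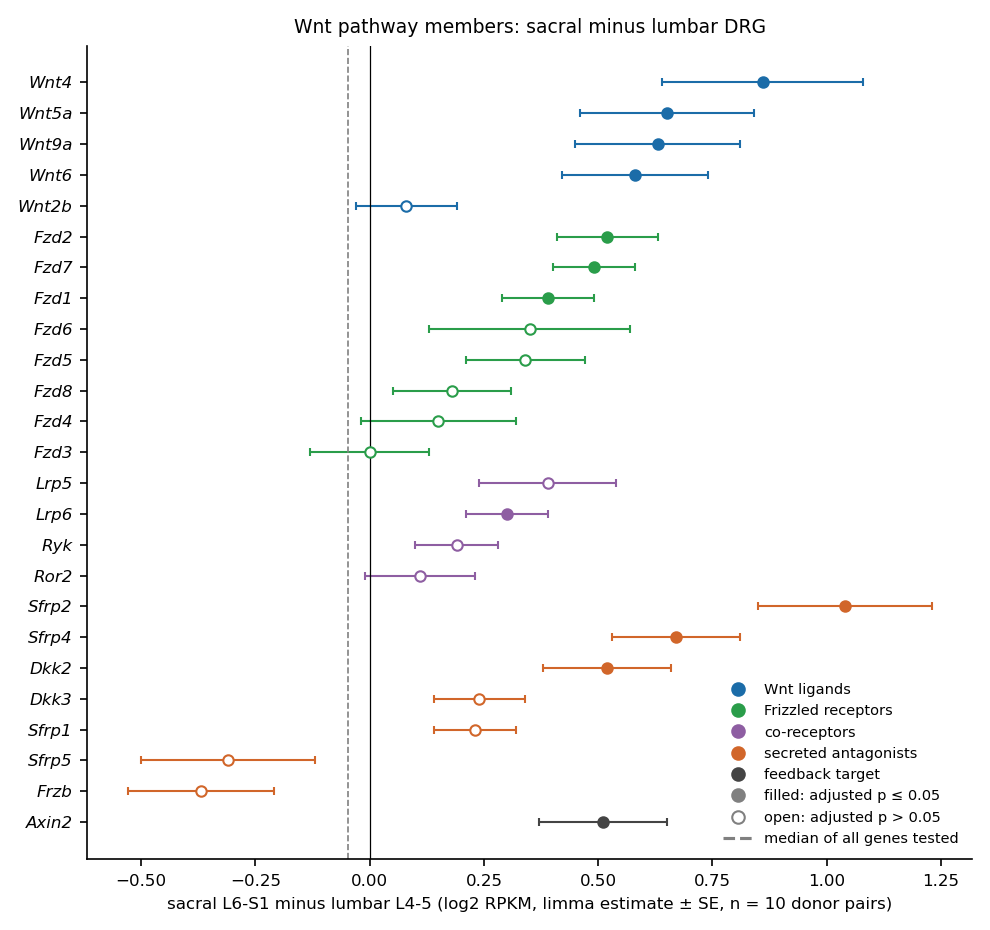
Sacral minus lumbar difference of the 25 tested members in log2 RPKM on the horizontal axis, as the limma estimate with its standard error from 10 donor pairs, coloured by role, with filled points for an adjusted p of at most 0.05. Only Sfrp5 and Frzb lie left of 0 among them, and the dashed line marks the median of -0.0475 over all genes tested.

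Promoter sequence was available for 31 of the 43 members in RefSeq (GRCm38.p6), as windows from 250 bases before to 50 bases after a gene's start. The windows were searched on both strands for CTTTGAT and CTTTGTT, core letters of the TCF/LEF binding motif, with no other motif searched. At least 1 match lay in 14.7% of 34 member windows, in 1 of the 8 windows of called members, and in 9.33% of all 32851 windows. The sequences of 3 called members are shown, each as the 250 bases before the start, with the match in capitals: Fzd7 and Sfrp2, which had the smallest adjusted p-values, and Axin2, the target gene of the list. Fzd7 lies at chr1:59481897-59482146, Sfrp2 at chr3:83766071-83766320 and Axin2 at chr11:108920099-108920348, all on the plus strand of GRCm38.
Fzd7: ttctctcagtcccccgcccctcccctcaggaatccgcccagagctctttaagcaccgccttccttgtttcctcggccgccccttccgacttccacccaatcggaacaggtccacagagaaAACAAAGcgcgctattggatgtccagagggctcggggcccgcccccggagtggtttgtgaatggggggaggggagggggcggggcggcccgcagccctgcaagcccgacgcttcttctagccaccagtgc
Sfrp2: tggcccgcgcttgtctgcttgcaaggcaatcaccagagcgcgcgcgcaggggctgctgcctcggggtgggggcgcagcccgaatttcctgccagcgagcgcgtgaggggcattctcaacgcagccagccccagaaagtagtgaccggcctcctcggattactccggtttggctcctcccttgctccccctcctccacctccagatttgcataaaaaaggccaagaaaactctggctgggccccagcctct
Axin2: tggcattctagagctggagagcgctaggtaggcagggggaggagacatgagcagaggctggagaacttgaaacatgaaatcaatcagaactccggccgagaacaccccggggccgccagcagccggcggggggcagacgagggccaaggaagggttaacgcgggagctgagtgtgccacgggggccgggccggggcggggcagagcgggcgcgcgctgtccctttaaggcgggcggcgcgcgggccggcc
The match of Fzd7 is AACAAAG, the reverse complement of CTTTGTT, and begins 130 bases before the start. These letters do not occur in the Sfrp2 and Axin2 windows, whose GC contents were 63.6% and 69.2% beside 65.2% for Fzd7.

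Among the ligands, 4 of the 5 tested rose in sacral ganglia and none of the 5 had a negative difference. The summed RPKM of all ligands had a lumbar median of 10.4 and a sacral median of 14.1, and was higher in sacral ganglia in 9 of 10 donors. Wnt4 (mm9 chromosome 4, 136833404 to 136855641), a ligand best known from kidney and gonad development, ranged from 0.606 to 2.51 RPKM in lumbar ganglia (median 1.19) and from 1.45 to 4.35 RPKM in sacral ganglia (median 2.19). The ranges overlapped, with 3 sacral libraries above every lumbar library, while 9 of 10 donors had the higher value in sacral ganglia. The difference of Wnt4 was 0.86 ± 0.22 (SE) on the log2 scale, with an adjusted p of 0.0259. Without M1, M5, M8, F3, F9 or F10 it was no longer past the threshold, with adjusted p-values of up to 0.0882.

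Wnt5a (chromosome 14, 29317936 to 29340633), the prototype of ligands that act independently of β-catenin, ranged from 0.909 to 2.33 RPKM in lumbar (median 1.47) and from 0.944 to 3.32 RPKM in sacral ganglia (median 2.47). Of the sacral libraries, 7 lay above every lumbar library, and the lowest sacral value was close to the lowest lumbar value. Wnt5a was higher in sacral ganglia in 8 of 10 donors, by 0.65 ± 0.19 on the log2 scale (adjusted p = 0.0466). It was lost without M1, M3, M5, M8, F3, F7 or F10, with adjusted p-values of up to 0.154.

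Wnt6 (chromosome 1, 74818466 to 74831893), a ligand of epithelia and surface ectoderm, ranged from 0.868 to 1.76 RPKM in lumbar (median 1.17) and from 1.32 to 3.39 RPKM in sacral ganglia (median 1.71). The ranges overlapped in part, with 5 sacral libraries above every lumbar one. Its log2 difference was 0.58 ± 0.16 (adjusted p = 0.0299), higher in 8 of 10 donors, and the call was lost without M3, M5, M8, F3, F7 or F10 (adjusted p of up to 0.102). Wnt9a (chromosome 11, 59120430 to 59147054), a ligand with a role in joint formation, ranged from 0.542 to 2.15 RPKM in lumbar (median 1.21) and from 1.22 to 2.87 RPKM in sacral ganglia (median 1.74). Only 4 sacral libraries exceeded the lumbar maximum. The log2 difference of Wnt9a was 0.63 ± 0.18 (adjusted p = 0.0440), higher in 8 of 10 donors, and the call held only without M7 or F8, with adjusted p-values of up to 0.123 in the other fits.

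Wnt2b (chromosome 3, 104747723 to 104764627), the most abundant ligand, ranged from 3.05 to 5.97 RPKM in lumbar (median 3.86) and from 2.92 to 6.34 RPKM in sacral ganglia (median 4.44). The levels overlapped almost entirely, and 6 of 10 donors had the higher value in sacral ganglia. The log2 difference was 0.08 ± 0.11 (adjusted p = 0.708).

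All 8 tested Frizzled receptors had an estimate at or above 0, and 3 rose past the threshold. Their summed RPKM, Fzd9 and Fzd10 included, had a median of 42.6 in lumbar and 52.3 in sacral ganglia, higher in 9 of 10 donors. Fzd7 (chromosome 1, 59538991 to 59543791) was the clearest of them. Its RPKM in lumbar and then sacral ganglia was 7.56 and 13.3 in M1, 7.49 and 9.48 in M3, 6.02 and 9.39 in M5, 8.60 and 10.2 in M7, and 8.87 and 14.1 in M8. In the female embryos it was 7.82 and 12.6 in F3, 8.26 and 13.9 in F7, 11.6 and 12.5 in F8, 9.35 and 10.4 in F9, and 8.86 and 12.7 in F10. Every donor was higher in sacral ganglia and 6 sacral libraries lay above every lumbar library, and the lumbar value of F8 alone reached into the sacral range. On the log2 scale the difference was 0.49 ± 0.09 (adjusted p = 0.00261, from 0.000332 to 0.0283 over 21 alternatives).

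Fzd2 (chromosome 11, 102465745 to 102469372) ranged from 2.04 to 6.42 RPKM in lumbar (median 3.73) and from 3.69 to 6.90 RPKM in sacral ganglia (median 5.45). Because of the lumbar value of F8, a single sacral library lay above all lumbar ones, yet 9 of 10 donors were higher in sacral ganglia. Its log2 difference was 0.52 ± 0.11 (adjusted p = 0.00897). Fzd1 (chromosome 5, 4753842 to 4758216), the most abundant Frizzled receptor, ranged from 7.26 to 12.3 RPKM in lumbar (median 10.4) and from 9.0 to 18.8 RPKM in sacral ganglia (median 12.9). The sacral maximum stood well above the lumbar one, and 5 sacral libraries exceeded every lumbar library. The log2 difference of Fzd1 was 0.39 ± 0.10 (adjusted p = 0.0269), higher in 9 of 10 donors, and the call was lost without M1, M7, F3, F7, F9 or F10 (adjusted p of up to 0.0914).

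The other tested Frizzled receptors were not past the threshold. Fzd3, which acts in planar polarity and axon growth, was almost as abundant as Fzd1 and had a log2 difference of 0.00 ± 0.13 (adjusted p = 0.998), with 6 of 10 donors higher in sacral ganglia. Estimates were 0.34 ± 0.13 for Fzd5 and 0.35 ± 0.22 for Fzd6, each higher in 8 of 10 donors (adjusted p = 0.127 and 0.332). Fzd8 had 0.18 ± 0.13 (adjusted p = 0.391) and Fzd4, the Norrin receptor of blood vessels, 0.15 ± 0.17 (adjusted p = 0.623). The share of Fzd3 in summed Frizzled RPKM had a median of 23.6% in lumbar and 18.4% in sacral ganglia, that of Fzd7 20.3% and 23.8%, and that of Fzd1 24.0% and 26.1%.

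Lrp6 (chromosome 6, 134396494 to 134516983), the main co-receptor for β-catenin signalling, was the only one of the 4 tested co-receptors past the threshold. It ranged from 9.62 to 14.3 RPKM in lumbar (median 10.8) and from 11.4 to 19.4 RPKM in sacral ganglia (median 13.5), with 3 sacral libraries above every lumbar one. The log2 SD over 10 libraries was 0.21 in lumbar and 0.22 in sacral ganglia. The log2 difference was 0.30 ± 0.09 (adjusted p = 0.0430), higher in 9 of 10 donors, and the call held only without M8 or F8, with adjusted p-values of up to 0.122 in the other fits. Lrp5, its paralog, had a median of 1.28 RPKM in lumbar and 1.62 RPKM in sacral ganglia, and a log2 difference of 0.39 ± 0.15 (adjusted p = 0.131) in the same direction in 8 of 10 donors.

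Ryk (chromosome 9, 102737250 to 102810637) ranged from 2.12 to 3.89 RPKM in lumbar (median 2.98) and from 2.74 to 4.80 RPKM in sacral ganglia (median 3.18). The ranges overlapped, with 1 sacral library above every lumbar library and 4 lumbar libraries below every sacral one. Its log2 difference was 0.19 ± 0.09 (adjusted p = 0.225). Ror2, a receptor for Wnt5a, had 0.11 ± 0.12 (adjusted p = 0.605). Whole reads could not be recovered for Lrp5 and Ryk with the exon lengths used, so their depth is not given.

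Of 7 tested antagonists, 3 rose past the threshold, and estimates lay on both sides of 0. The summed RPKM of the 9 listed antagonists had a median of 114 in lumbar and 136 in sacral ganglia and was higher in sacral ganglia in 10 of 10 donors. Sfrp2 (chromosome 3, 83570243 to 83578238), which is known from connective tissue and muscle progenitors, had the largest difference of the 25 members. Its RPKM in lumbar and then sacral ganglia was 1.33 and 3.05 in M1, 1.97 and 2.31 in M3, 1.36 and 4.20 in M5, 1.35 and 4.28 in M7, and 1.12 and 2.63 in M8. In the female embryos it was 2.18 and 2.99 in F3, 2.58 and 4.77 in F7, 3.56 and 3.63 in F8, 0.745 and 3.67 in F9, and 1.54 and 2.66 in F10. All 10 donors were higher in sacral ganglia, and the lumbar libraries of F7 and F8 alone reached into the sacral range. On the log2 scale Sfrp2 rose by 1.04 ± 0.19 (adjusted p = 0.00305, from 0.000586 to 0.0235 over 21 alternatives).

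Sfrp4 (chromosome 13, 19714973 to 19724863) ranged from 2.69 to 6.45 RPKM in lumbar (median 3.81) and from 3.66 to 8.38 RPKM in sacral ganglia (median 6.30). The 5 sacral libraries above every lumbar one included libraries of both sexes. The log2 difference was 0.67 ± 0.14 (adjusted p = 0.00883), higher in 9 of 10 donors. Dkk2 (chromosome 3, 131748256 to 131843257), a Dickkopf protein that binds Lrp6, ranged from 1.75 to 3.45 RPKM in lumbar (median 2.85) and from 2.29 to 6.44 RPKM in sacral ganglia (median 3.98). For this gene 7 of the 10 sacral libraries lay above every lumbar library. Dkk2 had a log2 difference of 0.52 ± 0.14 (adjusted p = 0.0281), higher in 9 of 10 donors, and lost the call without M1, M8, F3, F7, F9 or F10 (adjusted p of up to 0.0880).

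Sfrp1 (chromosome 8, 24521974 to 24560104) was higher in sacral ganglia in 10 of 10 donors, by 0.01 to 0.37 on the log2 scale. The 6 highest sacral libraries exceeded the lumbar maximum, but the difference of 0.23 ± 0.09 was not past the threshold (adjusted p = 0.111). It passed in 3 of the 21 alternatives, with library weights, after recentring and with the mitochondrial share as a covariate. Dkk3 (chromosome 7, 119259533 to 119302571) had 0.24 ± 0.10 (adjusted p = 0.149), higher in 8 of 10 donors.

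Frzb (chromosome 2, 80252127 to 80287782), also called Sfrp3 and first described in cartilage, had the opposite direction. It ranged from 2.07 to 5.07 RPKM in lumbar (median 4.09) and from 1.33 to 4.89 RPKM in sacral ganglia (median 2.90). No sacral library exceeded the lumbar maximum, and 1 of 10 donors was higher in sacral ganglia. Its log2 difference was -0.37 ± 0.16 (adjusted p = 0.165), and it passed the threshold only with library weights (adjusted p = 0.0191). Sfrp5, from a median of 10.5 RPKM in lumbar to 8.85 RPKM in sacral ganglia, had -0.31 ± 0.19 (adjusted p = 0.305).

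Axin2 (chromosome 11, 108781663 to 108812097), the target gene in the list, ranged from 0.765 to 2.23 RPKM in lumbar (median 1.23) and from 1.26 to 3.01 RPKM in sacral ganglia (median 1.84). The ranges overlapped widely, and F7 and F10 gave the sacral libraries above the lumbar maximum. The log2 difference was 0.51 ± 0.14 (adjusted p = 0.0333), higher in 8 of 10 donors. The call held without M8 or F8 and was lost without M1, M3, M5, M7, F3, F7, F9 or F10, with adjusted p-values of up to 0.118.

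**Figure D3:**
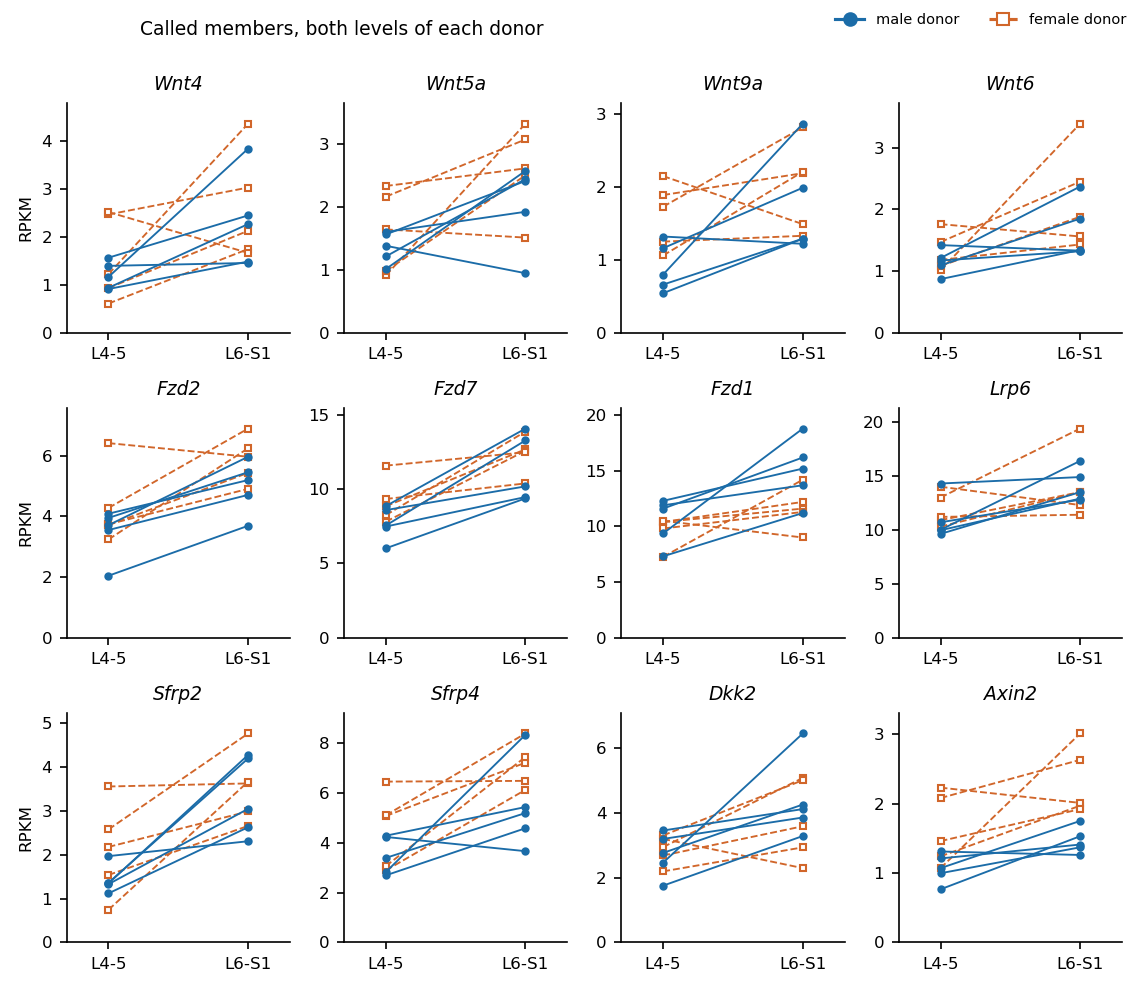
RPKM of the 12 called members in lumbar (L4-5) and sacral (L6-S1) ganglia, 1 panel per gene with its own vertical axis from 0, each line joining both libraries of a donor (filled circles and solid lines male, open squares and dashed lines female). All lines rise for Fzd7 and Sfrp2, and for the other genes between 8 and 9 of the 10 lines rise.

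The donors were not alike. Since the 12 members were called on the average over these same donors, higher values in most donors are no separate evidence. In M3, M5, F3, F7 and F10 all 12 called members were higher in sacral ganglia, with a median log2 difference over the 12 of 0.66 to 0.74. In M1, M8 and F9, 11 of the 12 were higher, and in M7 9 of 12. Donor F8 stood apart, with 4 of the 12 called members and 12 of all 25 tested members higher in sacral ganglia, and a median of -0.16 over the 12. The 8 that were lower in F8 were Wnt4, Wnt6, Wnt9a, Fzd1, Fzd2, Lrp6, Dkk2 and Axin2. Its lumbar library also stood apart in marker sums, with 428 RPKM of skeletal muscle markers against 20.9 to 199 RPKM in the other lumbar libraries and 85.6 RPKM in its sacral pair. Red cell markers summed to 189 RPKM and macrophage markers to 14.7 RPKM there, the highest lumbar values, beside 170 and 8.29 RPKM in the sacral library of F8. The part of these cells in the Wnt values of F8 was not tested. Without F8 the number of called members was 12, as with it.

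**Figure D4:**
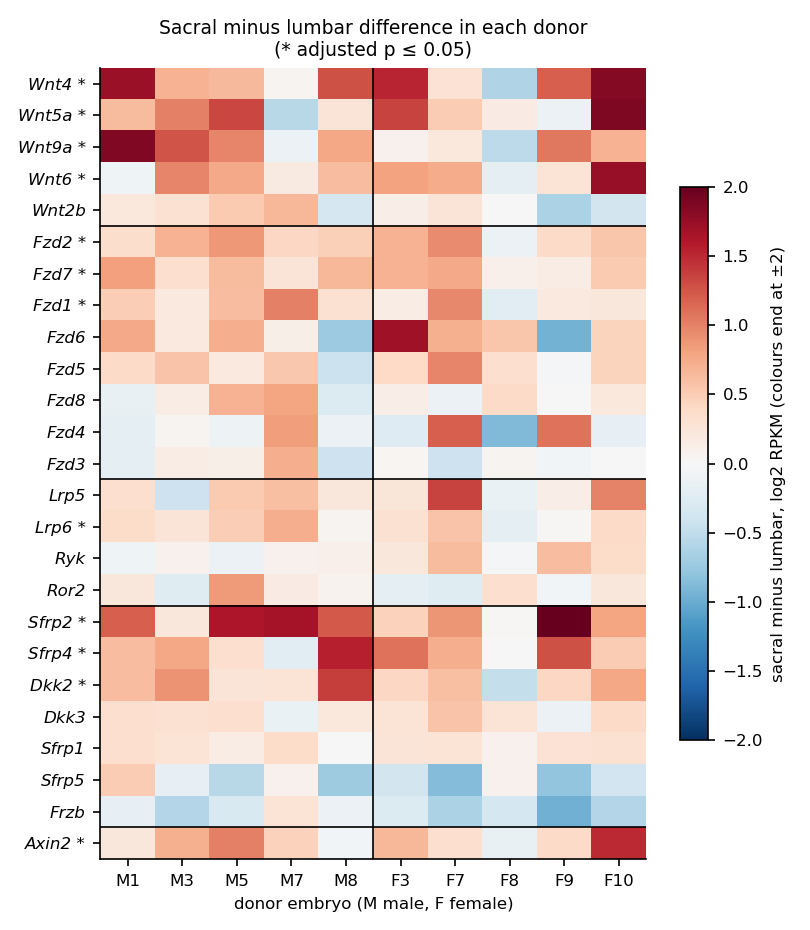
Sacral minus lumbar difference in log2 RPKM of the 25 tested members (rows, ordered by role and difference) in each of the 10 donors (columns), red for higher and blue for lower in sacral ganglia, with colours ending at ±2 and asterisks for an adjusted p of at most 0.05. The column of F8 holds 13 members that were lower in sacral ganglia, and the row of Frzb is blue in 9 donors.

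The 17 members with reads that lay below the filter were described by their reads and by a fit without the filter. None passed the threshold in it (adjusted p of 0.111 to 0.905). An unadjusted p under 0.05 was found for 8 of the 17, beside 4394 of all 29049 genes in that fit. Of the 17 estimates, 14 were positive and 3 negative, beside a median of 0.0034 over all genes in that fit. A blank set to 0.5 reads gives a sign even without reads. Wnt1 had 0 reads in both libraries of F9 and a log2 difference of 0.46 there. The count of signs is therefore no result about these members. Ror1 was close to the filter, with 48 to 350 reads per library. Wnt7a, a ligand of the nervous system, had 1 to 121 reads per library, 582 over the lumbar and 284 over the sacral libraries, and a log2 difference of -1.37 ± 0.54 (adjusted p = 0.214). Dkk1, an inhibitor of Lrp6, had 2 to 51 reads per library, 227 in lumbar and 109 in sacral ganglia (-1.30 ± 0.50, adjusted p = 0.210), and Fzd9 had 128 and 100 reads (-0.52 ± 0.43, adjusted p = 0.600). These negative estimates rest on few reads.

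In the other direction, Wnt11 had 58 reads over the lumbar and 141 over the sacral libraries, in 18 of 20 libraries (1.76 ± 0.55, adjusted p = 0.111). Wnt3 had 165 and 370 reads (1.03 ± 0.38, adjusted p = 0.188), Wnt10a 18 and 40 reads (1.74 ± 0.67, adjusted p = 0.206) and Wnt10b 6 and 16 reads (0.99 ± 0.46, adjusted p = 0.309). For Wnt11, Wnt10a and Wnt10b the log2 values depend on the 0.5 reads set for a blank, while Wnt3 had reads in all 20 libraries. Wnt5b had 166 and 192 reads, Wif1 167 and 179, Fzd10 400 and 564, Wnt2 44 and 48, Wnt7b 22 and 19, Wnt1 8 and 9, Wnt9b 3 and 13, and Wnt3a 1 and 6. None of these passed the threshold in the fit without the filter, and most rest on few reads. Wnt5b, Wnt2, Wnt7b, Wnt1, Wnt9b and Wnt3a also had blanks set to 0.5 reads. Fzd10, with reads in all 20 libraries, had a log2 difference of 0.87 ± 0.42 (unadjusted p = 0.0487, adjusted p = 0.327). Wnt16, for which whole reads could not be recovered, had a median of 0.0787 RPKM in lumbar and 0.126 RPKM in sacral ganglia (1.18 ± 0.51, adjusted p = 0.272).

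Some reads cannot be assigned to a member with certainty. The cDNA kit does not mark strand, and Sfrp2 shares 347 exon bases with the lincRNA Gm16790 on the opposite strand, which had 557 reads over the lumbar and 749 over the sacral libraries beside 3175 reads of Sfrp2 in all. Wnt5a shares 358 bases with Gm2670 (375 reads, against 8601 of Wnt5a) and Axin2 shares 209 bases with Gm11670 (447 reads, against 5156 of Axin2). Fzd10 shares 2430 bases on the same strand with an identifier annotated as a pseudogene, which had 897 reads beside 964 for the protein-coding identifier, so its level is uncertain.

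The members did not separate the sexes past the threshold at either level. In female minus male comparisons, 0 of 25 members were called in lumbar ganglia, beside 0.330% of all genes tested, and 0 of 25 in sacral ganglia, beside 1.01%. At an unadjusted p under 0.05 there were 2 of the 25 members in lumbar (Axin2 and Wnt9a) and 2 in sacral ganglia (Axin2 and Frzb). Over all 14529 genes tested there were 1203 in lumbar and 2256 in sacral ganglia, so the members did not stand out by this count. With voom on recovered reads 0 of 23 were called in each. In lumbar ganglia the RPKM of Axin2 was 1.21, 1.07, 0.765, 0.997 and 1.31 in males and 1.24, 2.08, 2.23, 1.46 and 1.07 in females. In sacral ganglia it was 1.41, 1.75, 1.53, 1.37 and 1.26 in males and 1.97, 2.63, 2.01, 1.92 and 3.01 in females. The sexes overlapped in lumbar but not in sacral ganglia. The female minus male difference of Axin2 was 0.56 in lumbar (unadjusted p = 0.0312, adjusted 0.545) and 0.64 ± 0.24 in sacral ganglia (unadjusted p = 0.0151, adjusted 0.212).

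The level difference itself was compared between the sexes by the interaction term. It was past the threshold for 0 of 25 members, as for 0% of all 14529 genes, and voom called 0 of 23. At an unadjusted p under 0.05 there were 0 members, beside 470 of all 14529 genes. The mean paired difference was positive in both sexes for all 12 called members. These were called on the average of the male and female differences, so this agreement is no separate evidence. For Sfrp2 the 5 male donors averaged 1.19 ± 0.58 (SD) and the 5 female donors 0.89 ± 0.86. The corresponding values were 0.54 ± 0.24 and 0.44 ± 0.30 for Fzd7, and 0.95 ± 0.72 and 0.31 ± 0.61 for Wnt9a, whose interaction was -0.64 (adjusted p = 0.995).

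Of 72 further Wnt pathway genes, 59 were tested and 13 were called, 9 higher and 4 lower in sacral ganglia. Over all genes tested, 2.70% were called higher and 4.03% lower. Adjusted p-values of the 13 were 0.000314 to 0.0493, and the median log2 difference over the 59 was 0.12. Among R-spondins, secreted proteins that strengthen Wnt responses, and their receptors, Rspo2 rose by 0.44 ± 0.11 while Rspo1 (-0.39 ± 0.08) and the receptor gene Lgr5 (-0.56 ± 0.17) fell. Of 13 tested genes of further cell surface and secreted regulators 4 rose, namely the glypicans Gpc3 (0.49 ± 0.12) and Gpc6 (0.64 ± 0.11), Gpr124, a Wnt7 co-receptor gene (0.41 ± 0.10) and Trabd2b, a Wnt-cleaving protease gene (0.75 ± 0.20). None of the 13 cytoplasmic signalling genes, such as Ctnnb1 and Gsk3b, was called, with a median of -0.05. The nuclear factors Tcf7l2 (0.42 ± 0.12) and Pygo1 (0.37 ± 0.08) rose.

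Further target genes went both ways. Ccnd1, the gene of cyclin D1, was lower in sacral ganglia in 10 of 10 donors (-0.67 ± 0.10, adjusted p = 0.000314), while Twist1 (1.09 ± 0.27) and Snai2 (0.71 ± 0.20), transcription factors of mesenchyme and neural crest, rose. The study itself named Snai2 on these libraries, so it is not independent evidence. The polarity gene Vangl1 fell (-0.38 ± 0.08). The number of called pathway genes, 13, became 7 without M1, 8 without M5, F3, F7 or F9, and 5 without F10.

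Fibroblast and cartilage markers were mostly higher in sacral ganglia, as the Wnt genes were. Of 11 tested fibroblast and meninges markers, 7 rose in sacral ganglia and 0 fell, beside 2.70% called higher and 4.03% lower over all genes tested. The summed level of these markers was 498 to 1070 RPKM (median 569) in lumbar and 713 to 1630 RPKM (median 850) in sacral ganglia. A large part of this sum was Igf2, with a median of 256 RPKM in lumbar and 441 RPKM in sacral ganglia. The sum was higher in 9 of 10 donors. The donor in which this sum was lower, from 1070 to 867 RPKM, was F8, whose called Wnt genes were mostly lower too. Cartilage markers rose in F8, from 27.9 to 42.2 RPKM. Log2 ratios of the fibroblast sum and then the Frizzled sum were as follows in males. They were 0.53 and 0.31 in M1, 0.42 and 0.27 in M3, 0.68 and 0.46 in M5, 0.34 and 0.67 in M7, and 0.75 and 0.11 in M8. In females they were 0.40 and 0.31 in F3, 0.97 and 0.63 in F7, -0.30 and -0.01 in F8, 0.64 and 0.18 in F9, and 0.95 and 0.28 in F10. The called markers included Igf2 (0.71), Col1a1 (0.72), Pdgfra (0.62) and the meningeal transcription factor Foxc1 (0.85). Those tested but not called were Col3a1 (0.07), Dcn (0.20), Lum (0.20) and Postn (-0.29). No library was at 0 for any listed marker except 1 library for Twist2. Of 5 tested cartilage markers, 2 rose and 0 fell, with a summed level of 15.1 to 30.1 RPKM in lumbar and 25.7 to 52.3 RPKM in sacral ganglia, higher in 10 of 10 donors, and Matn1 was at 0 in 3 libraries. The part of fibroblast, meningeal and cartilage RNA in the Wnt differences was not tested.

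Neural and glial markers went the other way. Of 12 Schwann cell and satellite glia markers, 6 fell and 0 rose, beside 4.03% called lower and 2.70% higher over all genes tested. The summed level of these 12 was 420 to 594 RPKM in lumbar and 267 to 435 RPKM in sacral ganglia, lower in 10 of 10 donors. Sensory neuron markers fell for 3 of 12, namely Snap25 (-0.60), Nefl (-0.90) and Nefm (-1.14). The other estimates were negative but not called, among them Isl1 (-0.19), Pou4f1 (-0.13) and Elavl4 (-0.05). A large part of the sum was Nefl, with a median of 934 RPKM in lumbar and 495 RPKM in sacral ganglia. The sum of the 12 was higher in sacral ganglia in 1 donor, F8 (1460 and 1660 RPKM). Markers of large myelinated sensory neurons fell for 3 of 6 (Pvalb, Nefh and Etv1), while Spp1 of that list had a positive estimate (0.70 ± 0.35, adjusted p = 0.227). The study itself named Pvalb and Nefh on these libraries, so they are not independent evidence. Of 5 tested endothelial and pericyte markers, 2 rose, Cdh5 (0.46) and Tek (0.54). Pecam1 (-0.11), Kdr (-0.04) and Rgs5 (-0.28) had negative estimates and were not called. The list median was -0.04, with sums of 56.7 to 80.9 RPKM in lumbar and 57.2 to 89.4 RPKM in sacral ganglia. Skeletal muscle had 0 of 6 called, macrophages 0 of 3, red cells 0 of 3 and proliferation 0 of 5, and of 2 tested spinal cord genes Slc5a7 rose (1.05, adjusted p = 0.00213, higher in 10 of 10 donors) and Aqp4 fell. The summed level of the spinal cord genes was 2.45 to 4.95 RPKM in lumbar and 2.39 to 7.29 RPKM in sacral ganglia, higher in 8 of 10 donors. Most of it came from Slc5a7 (median 1.21 RPKM in lumbar, 2.80 RPKM in sacral) and Aqp4 (2.15 and 1.20 RPKM). Mnx1 and Chat had medians of 0 RPKM at both levels, so the sum does not measure spinal cord tissue.

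**Figure D5:**
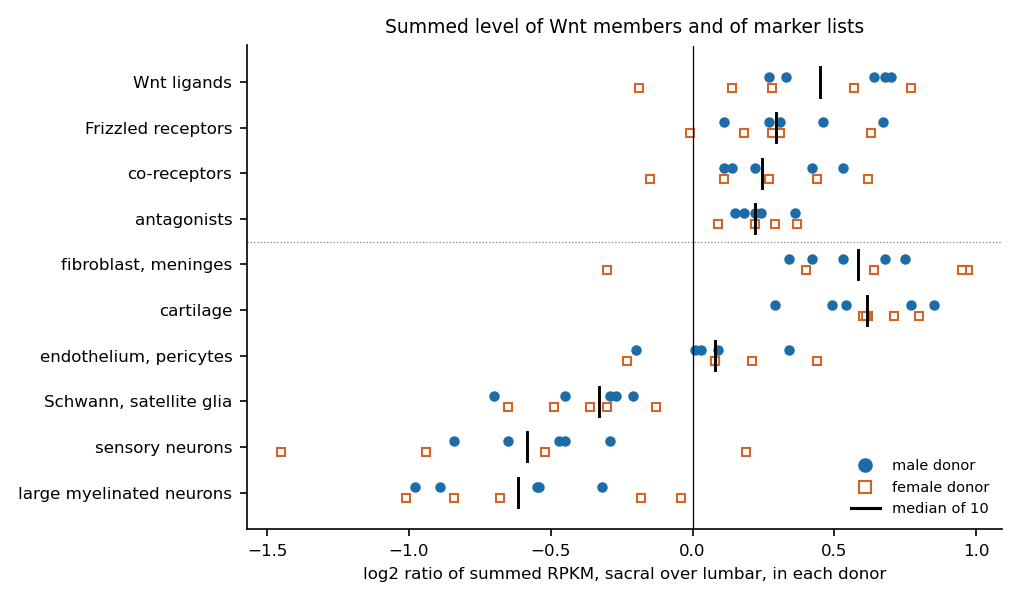
Log2 ratio of summed RPKM, sacral over lumbar, in each of the 10 donors (filled circles male, open squares female, black bar the median of 10) for the 4 classes of Wnt genes above the dotted line and for marker lists below it. The Wnt classes, fibroblast and cartilage markers have medians right of 0, glial and neuronal markers left of 0.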

How the data were processed

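Total RNA of 20 whole DRG samples was amplified, made into libraries by transposase tagging and sequenced. The authors aligned reads to mm9 with Subread, counted them per Ensembl gene with featureCounts, scaled them by TMM (edgeR) and deposited log2 RPKM values transformed by voom. Versions in the submitters' processing notes are Subread 1.18 and 1.20.6, R 3.2.1 and 3.2.2, limma 3.26.9 and edgeR 3.12.1. Use of strand is not stated in the sources used here.

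Groups and donors came from the labels. Reads were recovered from the deposited values with GENCODE M1 exon lengths (mm9): 98.27% of values lay within 0.05 of a whole read. Blanks were set to 0.5 reads. The upper limit on reads behind a blank covers counting error only. Standard errors come from the limma fits and SDs from the spread over donors or libraries, so both include variation between libraries.

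Level, sex and interaction contrasts were fitted with limma 3.58.1 (R 4.3.3, statmod 1.5.0) on log2 RPKM, with 4 group means, donor as a block through duplicateCorrelation (correlation 0.342), trended eBayes and two-sided p-values adjusted by Benjamini-Hochberg over 14529 genes with a mean log2 RPKM of at least 0 in 1 or more groups. The threshold was 0.05. The pairing comes from the design, since the donor code in the labels (M3 or F3, for example) gives both libraries of an embryo, and deviations of paired libraries from their group means correlated by -0.166 to 0.676. On simulated data the fit recovered 88% of genes changed by 1 and 96% of those changed by 2 on the log2 scale. Changes under 1, which all called members but Sfrp2 had, were not simulated.

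The members and lists were chosen with earlier results of these data known. Every member is named. Values are given in full for called members, the 2 most abundant members of each class and those with 1 direction in all 10 donors, and of the other pathway genes for those called. Of the 2 readings of a mean of 1 RPKM, that on the log2 scale was chosen after the data were seen. The expression table holds no columns of the authors' comparisons.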

Additional observations from a re-analysis of the deposited data

Results flagged for a closer look

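Among the 100 sets of 5 libraries formed by the 25 tested members and the 4 groups, 6 held 1 library far from the other 4 by Dixon's criterion. Chance alone gives about 1 in 20. Fzd1 was lowest in lumbar ganglia of F7, a female, at 2.86 log2 RPKM, against 3.29 to 3.39 in the other lumbar female libraries. Fzd2 was lowest in lumbar ganglia of M5, a male, at 1.03 log2 RPKM against 1.83 to 2.03, and Sfrp1 in the same library, at 5.10 against 5.62 to 5.79. Fzd6 was lowest in lumbar ganglia of the female F3, at -1.24 log2 RPKM against 0.32 to 0.50. Lrp6 was highest in lumbar ganglia of the male M8, at 3.84 log2 RPKM against 3.27 to 3.42. Sfrp5 was lowest in sacral ganglia of F7, at 1.60 log2 RPKM against 2.92 to 3.39. Mitochondrial ribosomal RNA took its highest share, 61.4% of reads, in that library of M5, and its part in these values was not tested.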

How the results depend on the processing

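With no replicate block, 2 members (Fzd7 and Sfrp2) were called between levels in place of 12, 4 of the other pathway genes in place of 13 and 6 cell-type markers in place of 25. With the replicate block as fixed donor effects 5 members were called, and with no filter on low values 4 members and 7 pathway genes, where 29049 genes shared the adjustment. Leaving out 1 donor at a time gave 4 to 12 members, 5 to 16 pathway genes and 17 to 28 markers. The filter on all 4 groups and log2(RPKM + 1) each gave 11 members, log2(RPKM + 0.1), voom on recovered reads and the filter on arithmetic means, which was added after the data were seen, gave 12, the mitochondrial share as a covariate gave 10, recentring 13 and library weights 14. Calls over all genes were 978 in the reported fit, 154 with no replicate block, 792 with fixed donor effects, 507 with no filter, 1244 with the covariate, 903 after recentring and 3064 with weights. The cause of these changes was not tested. Recentring moved the split of all calls from 392 higher and 586 lower to 454 higher and 449 lower. Of 521 recomputed values of single members, 433 kept their side of the threshold, 84 lost and 4 gained it, and 0 changed direction while called. The sex and interaction comparisons gave 0 called members in each of their alternatives. Few reads limit the estimates of Wnt1, Wnt3a, Wnt9b and other low ligands.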
